A study of Mus musculus with 16 samples.

Results

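The genes described here are 7 chemokine receptor genes of mouse chromosome 9: Ccr1, Ccr2, Ccr3, Ccr9, Cxcr6, Xcr1 and the receptor-like gene Ccrl2. They were taken by symbol from a table of 55573 genes, and all 7 passed the filter on low counts that left 13711 genes. They were chosen by a measured value, since Ccr3 was known to be higher in 1 of the comparisons, and the question was whether the genes near Ccr3 were higher with it. RNA was sequenced from OT1 cells, which are C57BL/6 CD8 T cells with a transgenic receptor for an ovalbumin peptide. Tumour-bearing mice received Foxp3UP cells mixed with Mock cells, and on day 5 the transferred cells were sorted from tumours by CD8, CD45.1 and/or CD90.1. Each of 4 groups had 4 libraries: Foxp3UP with its control MockUP, and Foxp3DN with its control MockDN. All groups share the OT1 receptor, the strain and the transfer. UP and DN are not explained in the labels, which also leave out how Foxp3 was imposed, the kind of tumour and whether the libraries came from separate animals, so p-values measure only the spread between these samples.

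Chemokine receptors are membrane proteins coupled to G proteins that steer white blood cells towards sources of chemokines. Several of their genes arose by duplication and still lie side by side, which is why a cluster of them can be read as a neighbourhood. In T cells these receptors govern entry into tissues, position within them and retention there. Foxp3 encodes the transcription factor that defines regulatory T cells.

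The label of a single cluster held for 6 of the 7 genes. Ccr9, Cxcr6, Xcr1, Ccr1, Ccr3 and Ccr2 followed each other in this order within 435.1 kb (build mm10, chr9:123678439-124113557). Ccrl2 lay 12.62 Mb away, at chr9:111054486-111057519, and is treated below as a distant relative. Among the listed genes Ccr3 (chr9:124021972-124031689, plus strand) had Ccr1 53.3 kb to one side and Ccr2 70.3 kb to the other. Xcr1 was a further 100.1 kb from Ccr1, Cxcr6 40.6 kb beyond Xcr1, and Ccr9 22.1 kb beyond Cxcr6. All are protein-coding genes, and the values below count reads over all their annotated exons.

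Library totals ran from 9389477 to 13226590 counts. Levels are CPM, reads per 1e6 counted in genes, after TMM scaling, which adjusts library sizes for composition. As a check of the labels, Foxp3 itself was at 15.2 to 29.5 CPM in the 4 Foxp3UP libraries and at 11.5 to 13.7 in MockUP. It was at 10.1 to 10.4 CPM in Foxp3DN and at 11.0 to 14.6 in MockDN, so neither pair of groups overlapped, and the Foxp3DN libraries were the lower of their pair. The genes of CD8 T cells were abundant in every group (Cd8a at a mean of 1149 CPM in Foxp3UP and 988 in MockUP), while Cd4 stayed under 1 CPM in all libraries. Titles number the samples so that replicates 1 and 2 of every group come before replicates 3 and 4, and the 2 sets are therefore also given apart.

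Ccr3, the receptor for the eotaxins and best known from eosinophils, basophils and type 2 helper T cells, had the largest contrast of the 7 genes. It stood at 23.6, 21.8, 67.2 and 54.2 CPM in Foxp3UP replicates 1 to 4. In MockUP it stood at 0.737, 0.285, 0.908 and 0.324 CPM, from 3 to 9 reads per library. The lowest Foxp3UP library was thus far above the highest MockUP library, and replicates 3 and 4 of Foxp3UP were well above replicates 1 and 2. The summed counts were 1700 in Foxp3UP and 23 in MockUP, a ratio of 70.4 after scaling to library size, with an exact 95% interval for counting error of 46.8 to 111. By replicate number the ratio was 32.0, 76.5, 73.9 and 167, and the counting interval of the last, against 3 reads, ran from 56.9 to 814. The fitted log2 fold change was 6.17 ± 0.47 (SE), and it is given without a test because this contrast is the one the genes were listed from. In bulk RNA, fewer cells of a type and less RNA per cell cannot be told apart, so these levels do not say what share of cells carried the transcript.

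The 250 bases before the start of Ccr3 are shown beside those of Ccr1, its nearest neighbour among the 7, and of Xcr1, whose level was about equal in Foxp3UP and MockUP. They are from RefSeq (GRCm38.p6, the same build as mm10), 5′ to 3′ on each gene's strand, and capitals mark matches to short motifs of transcription factors active in T cells. Both strands were searched. The AP-1 motif was TGANTCA, the one for GATA factors was AGATAA, the one for Runx factors was TGTGGT, the one for forkhead factors was TGTTTAC, and the one for T-box factors was AGGTGT. A match is a description of letters and not a bound site.
Ccr3, chr9:124021721-124021970, plus strand: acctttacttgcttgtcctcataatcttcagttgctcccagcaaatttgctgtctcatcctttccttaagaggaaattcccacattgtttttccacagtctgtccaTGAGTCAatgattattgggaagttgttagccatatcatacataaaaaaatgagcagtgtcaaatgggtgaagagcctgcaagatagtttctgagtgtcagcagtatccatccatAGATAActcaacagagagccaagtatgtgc
Ccr1, chr9:123968693-123968942, minus strand: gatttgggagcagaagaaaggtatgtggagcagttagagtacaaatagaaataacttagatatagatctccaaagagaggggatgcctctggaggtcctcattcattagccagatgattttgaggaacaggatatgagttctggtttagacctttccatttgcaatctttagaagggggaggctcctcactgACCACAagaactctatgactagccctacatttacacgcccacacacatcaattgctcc
Xcr1, chr9:123862030-123862279, minus strand: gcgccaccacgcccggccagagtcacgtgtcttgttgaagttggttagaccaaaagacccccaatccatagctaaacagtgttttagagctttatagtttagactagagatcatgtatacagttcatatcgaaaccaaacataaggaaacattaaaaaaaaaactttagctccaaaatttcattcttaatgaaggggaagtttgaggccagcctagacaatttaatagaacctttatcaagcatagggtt
The Ccr3 window held an AP-1 match 144 to 138 bases before the start and a GATA match 30 to 25 bases before it. AP-1 letters occurred in 6.75% and GATA letters in 9.99% of 32851 promoter windows of the same length. The Ccr1 window held a reverse-strand Runx match 58 to 53 bases before the start, letters found in 14.0% of windows, and the Xcr1 window held none of the 5 motifs. Among the windows not shown, GATA letters matched in those of Ccr2 and Ccrl2, for 4 of the 9 windows in all. Runx letters matched in that of Cxcr6, for 2 of the 9. The 4 include 2 overlapping windows of Ccrl2 that hold the same GATA site, so counts over the 9 windows are not of separate sequences. A sixth motif, the NFAT core GGAAA, is too frequent to be put in capitals. It matched in 8 of the 9 windows, those of Ccr3, Ccr1 and Xcr1 included, and in 55.6% of all windows. The letters of forkhead factors, the family to which Foxp3 belongs, were in 0 of the 9 windows of the 7 genes and in 3.17% of all windows.

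Ccr1, a receptor for Ccl3 and Ccl5 among others, was the next in size. It stood at 8.81, 7.15, 4.71 and 6.83 CPM in Foxp3UP and at 4.42, 2.75, 2.02 and 2.38 in MockUP. The groups did not overlap, though the lowest Foxp3UP library (replicate 3) was only a little above the highest MockUP library (replicate 1). The log2 fold change was 1.24 ± 0.27, and the ratio within replicate numbers ran from 1.99 to 2.87.

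Ccr2, the receptor for Ccl2 that carries monocytes and effector T cells to inflamed tissue, was the most even of the higher genes. It stood at 1029, 935, 1303 and 1180 CPM in Foxp3UP and at 498, 484, 638 and 562 CPM in MockUP. All Foxp3UP libraries were above all MockUP libraries. The ratio was 2.07, 1.93, 2.04 and 2.10 for replicates 1 to 4, and the log2 fold change was 1.03 ± 0.11. The step in Ccr2 was therefore about the same in replicates 3 and 4 as in replicates 1 and 2. Within the 2 sets the log2 fold change of Ccr3 was 5.43 ± 0.41 and 6.58 ± 0.39, and that of Ccr2 was 1.00 ± 0.12 and 1.05 ± 0.12. The Ccr3 values rest on 3 to 9 reads per MockUP library, and the difference between the sets was not tested.

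Cxcr6, the receptor for Cxcl16 and a gene of T cells that stay in tissues, was the most abundant of the 7. It stood at 1403, 1403, 1623 and 1435 CPM in Foxp3UP and at 1060, 895, 1310 and 1242 CPM in MockUP. The groups did not overlap, with the gap between them (1310 to 1403) smaller than the spread inside MockUP. The log2 fold change was 0.38 ± 0.12, from 0.52 within replicates 1 and 2 to 0.26 within replicates 3 and 4.

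Xcr1 and Ccr9 did not separate the groups. Xcr1, the receptor for Xcl1 and a mark of cross-presenting dendritic cells, stood at 19.3, 22.4, 16.8 and 14.4 CPM in Foxp3UP and at 18.8, 18.7, 19.1 and 15.5 in MockUP. Its log2 fold change was 0.02 ± 0.16. Ccr9, the receptor for Ccl25 that directs cells to gut and thymus, stood at 1.59, 1.25, 1.60 and 1.19 CPM in Foxp3UP and at 1.01, 1.42, 1.01 and 0.973 CPM in MockUP. These rest on 9 to 18 reads per library, and the log2 fold change was 0.34 ± 0.34. The Ccr9 values are also uncertain because the gene shares 1932 exonic bases, 18.8% of its length, with the opposite-strand gene AC165425.1 and 269 with the lincRNA Gm17200.

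Ccrl2, an atypical receptor that binds chemerin and does not couple to G proteins, lies outside the cluster. It stood at 95.7, 101, 131 and 116 CPM in Foxp3UP and at 74.7, 65.0, 85.9 and 79.0 CPM in MockUP. The groups did not overlap, and the log2 fold change of 0.54 ± 0.11 was larger than that of Cxcr6 inside the cluster. The Foxp3UP libraries did overlap those of Foxp3DN (97.0 to 115 CPM), and every MockUP library was below every MockDN library. The effect in the UP groups minus that in the DN groups was about equal for Ccrl2 (0.38 ± 0.15) and Cxcr6 (0.34 ± 0.16), on the log2 scale.

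**Figure D1:**
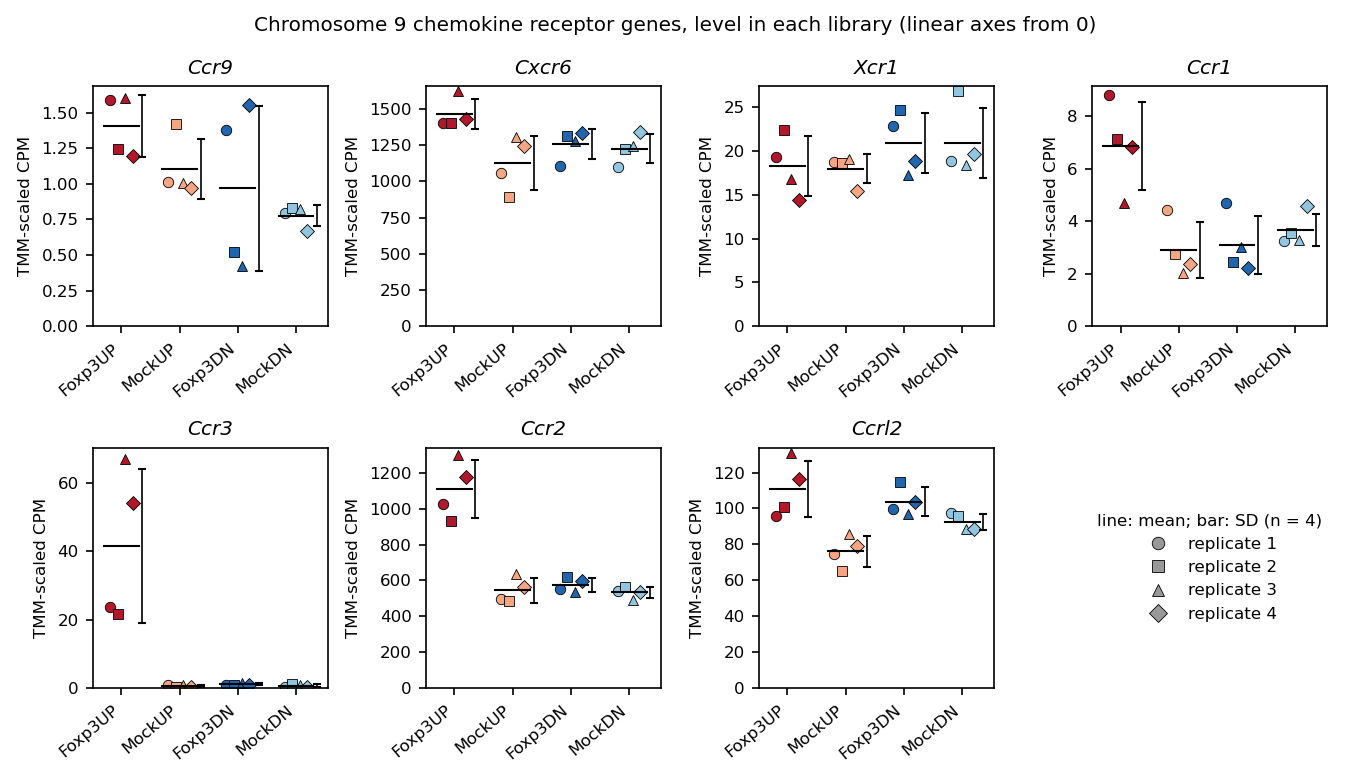
Level of each of the 7 receptor genes in every library, in TMM-scaled CPM on linear axes from 0, by group, with marker shape for the replicate number, a line at the mean and a bar of 1 SD (n = 4). Foxp3UP is set apart in Ccr3 (21.8 to 67.2 CPM against at most 1.51 in every other group) and Ccr2, and lies among the other groups in Xcr1. In Cxcr6 its lowest library (1403 CPM) is above the highest of the other groups (1340, in MockDN). In Ccr1 its lowest library (4.71 CPM) is about level with the highest of Foxp3DN (4.70).

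In this comparison 5 of the 7 genes had all 4 Foxp3UP libraries above all 4 MockUP libraries, against 8.61% of all genes tested. Nothing is read from this count, since the contrast was used to list the genes, and no calls of the 7 are given for it. Called, here and below, means an edgeR adjusted p under 0.05, which 12.1% of the genes tested reached in either direction. The median log2 fold change was 0.54 over the 7 genes and 0.00 over all genes tested. The number of genes called was 1654, and rose to 3475 when replicate numbers were used as blocks, and was 1064 without Foxp3UP replicate 1 and 1097 without Foxp3UP replicate 3.

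**Figure D2:**
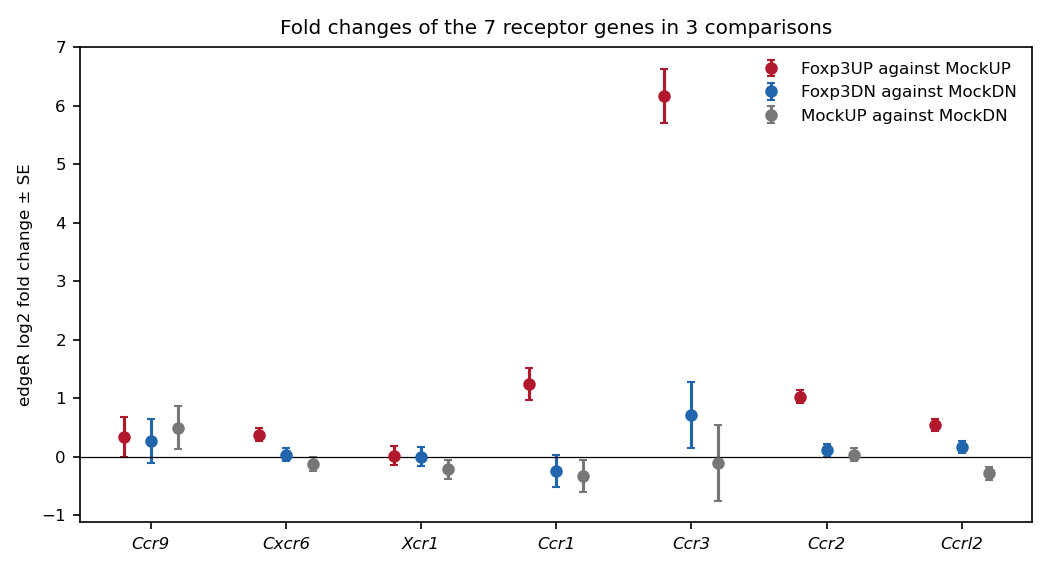
edgeR log2 fold change with its SE for each of the 7 genes in chromosome order (Ccrl2, on its own stretch, last), for the 3 comparisons. In Foxp3UP against MockUP the values fall from 6.17 (Ccr3) to 0.02 (Xcr1), and in the other comparisons they lie between -0.33 and 0.72.

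Per kilobase of exon (RPKM), the order of the genes changed in 1 place between groups. Cxcr6, Ccr2 and Ccrl2, in this order, led in every group, with no overlap between libraries of neighbours in the order. Cxcr6 was at 759 ± 54.8 RPKM in Foxp3UP and 584 ± 96.8 in MockUP (SD, n = 4), and Ccr2 was at 164 ± 24.0 and 80.7 ± 10.4. Ccr3 was the fourth gene in Foxp3UP, at 12.7 ± 6.90 RPKM, above Xcr1 at 4.10 ± 0.770 and Ccr1 at 2.43 ± 0.594. In MockUP it was the sixth, at 0.172 ± 0.0940 RPKM, where its libraries overlapped those of Ccr9, the last gene at 0.108 ± 0.0208. It was also the sixth in Foxp3DN (0.309 ± 0.105) and MockDN (0.185 ± 0.109), there without overlap with Ccr9. Even in Foxp3UP, Ccr3 made up 0.874% to 2.13% of the reads of the 7 genes, against 0.0171% to 0.0445% in MockUP.

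The replicate sets did not move the genes together. In Foxp3UP, Ccr3 averaged 22.7 CPM in replicates 1 and 2 and 60.7 in replicates 3 and 4, while Ccr1 averaged 7.98 and 5.77. Ccr1 was thus lower in the libraries in which its neighbour Ccr3 was higher, though MockUP gave Ccr1 the same slope (3.59 and 2.20 CPM). Over the 16 libraries, deviations from the group mean correlated at -0.25 between Ccr3 and Ccr1, at 0.48 between Ccr3 and Ccr2 and at -0.62 between Ccr1 and Ccr2. The pair with the highest such value, 0.90, was Ccr2 and Ccrl2, which lie 12.62 Mb or more apart. These are descriptions over libraries that share depth and replicate set, and no test was made of them.

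**Figure D3:**
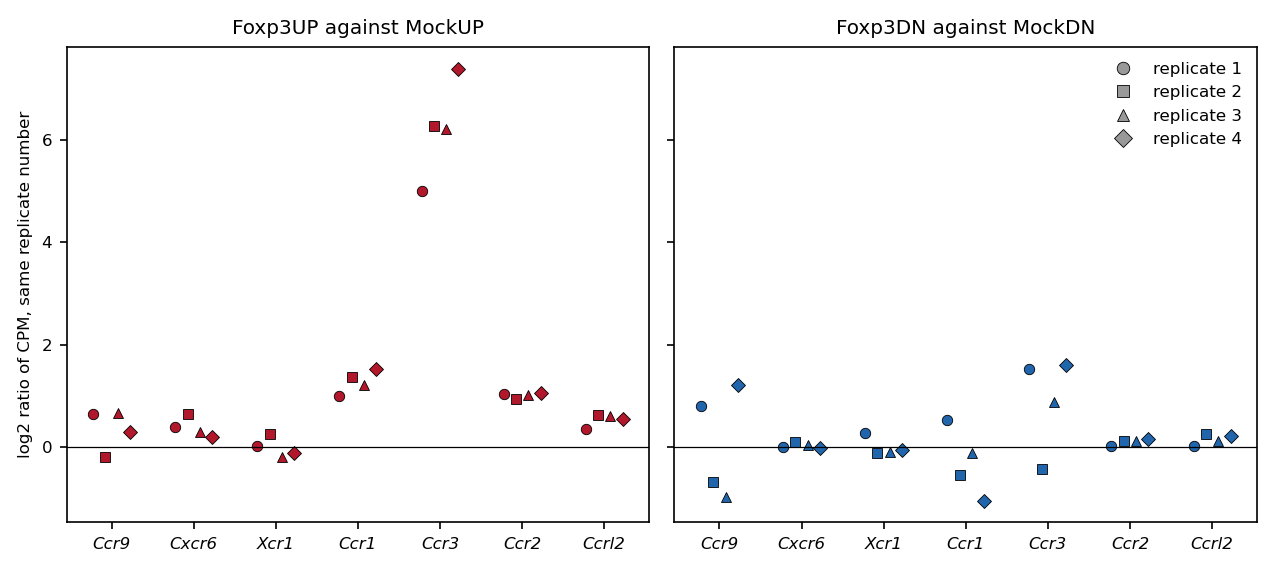
log2 ratio of CPM between Foxp3 and Mock libraries of the same replicate number, for the 7 genes, in the UP groups (left) and the DN groups (right). In the left panel Ccr3 lies between 5.00 and 7.39, Ccr2 between 0.95 and 1.07, and Xcr1 and Ccr9 on both sides of 0, while in the right panel Ccr3, Ccr1 and Ccr9 have ratios on both sides of 0.

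Foxp3DN against MockDN was not used to list the genes and shares no library with the first comparison. None of the 7 genes was called in it (edgeR adjusted p of 1.00 for each), against 0.00729% of all genes, and 0 had an unadjusted p under 0.05, against 1.04%. With DESeq2 the count was also 0. Ccr3 stood at 0.921, 0.740, 1.51 and 0.872 CPM in Foxp3DN and at 0.317, 0.993, 0.820 and 0.286 CPM in MockDN. The groups overlapped, with 9 to 18 reads per Foxp3DN library and 3 to 12 per MockDN library, and the log2 fold change was 0.72 ± 0.57. Ccr1 stood at 4.70, 2.44, 3.03 and 2.23 CPM in Foxp3DN and at 3.25, 3.56, 3.28 and 4.58 CPM in MockDN, a log2 fold change of -0.24 ± 0.28.

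The abundant receptors gave tighter bounds in the DN groups. Ccr2 stood at 550, 617, 534 and 597 CPM in Foxp3DN and at 540, 566, 492 and 535 CPM in MockDN, a log2 fold change of 0.11 ± 0.11. Cxcr6 ranged from 1108 to 1335 CPM in Foxp3DN and from 1101 to 1340 CPM in MockDN, a log2 fold change of 0.04 ± 0.12. Ccrl2 ranged from 97.0 to 115 CPM and from 88.6 to 97.4 CPM, and its log2 fold change was 0.17 ± 0.11. None of the 7 genes had groups without overlap here, against 1.15% of all genes. Ccr2 and Ccrl2 were nevertheless higher in Foxp3DN in 4 of 4 replicate numbers. Xcr1 ranged from 17.3 to 24.7 CPM in Foxp3DN and from 18.4 to 26.8 in MockDN, with a log2 fold change of 0.00 ± 0.16. Ccr9 ranged from 0.420 to 1.55 CPM and from 0.668 to 0.828, on 5 to 16 reads per library, with a log2 fold change of 0.27 ± 0.37.

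MockUP against MockDN compares the control groups with each other, and shares the MockUP libraries with the first comparison. None of the 7 genes was called (edgeR adjusted p of 0.999 for each), against 0.00729% of all genes, and DESeq2 called 0 of them too. Ccrl2 was at 76.2 ± 8.74 CPM in MockUP and 92.6 ± 4.64 CPM in MockDN (SD, n = 4), with all 4 MockUP libraries lower. This placed it among the 3.16% of genes with an unadjusted p under 0.05 (0.0173) and the 1.09% with all 4 libraries lower, at a log2 fold change of -0.28 ± 0.11. Ccr9 was higher in all 4 MockUP libraries, as were 0.751% of all genes, at 1.10 ± 0.213 against 0.777 ± 0.0742 CPM, with a log2 fold change of 0.50 ± 0.37. The other 5 genes overlapped, with log2 fold changes from -0.33 (Ccr1) to 0.03 (Ccr2), and Ccr3 at -0.11 ± 0.65. The single gene called in this comparison, and in Foxp3DN against MockDN, was Thy1, which encodes the sort marker CD90. Its log2 fold change was 2.38 ± 0.19 in MockUP against MockDN (edgeR adjusted p = 4.17e-06) and -1.51 ± 0.18 in Foxp3DN against MockDN (edgeR adjusted p = 0.00317).

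The genes around the receptors were counted by position and were tested in every comparison. Within 500 kb of the 6-gene stretch or of Ccrl2 the table holds 70 genes besides the 7, of which 26 could be tested, 16 by the stretch and 10 by Ccrl2. In Foxp3UP against MockUP, 3 of the 26 were called higher, against 6.08% of all genes, and 2 were called lower, against 5.99%. All 3 higher genes were among the 16 by the stretch. One of the 3 was another chemokine receptor gene, 1 of 2 such genes there, whose values are not given here. Of the 25 tested genes that are not chemokine receptors, 2 were called higher and 2 lower. The median log2 fold change of the 16 genes by the stretch was 0.06, against 0.00 over all genes. The count of 5 fell to 3 without Foxp3UP replicate 1, 3 or 4.

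Lztfl1, which encodes a regulator of protein traffic to cilia and lies within the span of Ccr9 on the opposite strand, was called higher. It stood at 18.7, 16.9, 19.2 and 20.0 CPM in Foxp3UP and at 12.9, 12.2, 13.0 and 15.0 in MockUP, with no overlap. Its log2 fold change was 0.49 ± 0.11 (edgeR adjusted p = 0.00983), and it shared 0 exonic bases with Ccr9. The call was lost in 4 of 19 alternatives, with adjusted p up to 0.194 from replicates 1 and 2 only. The lincRNA Gm17200, which shares exonic bases with Ccr9, averaged 8.11 ± 0.746 CPM in the Foxp3UP libraries and 5.67 ± 0.724 in MockUP, a log2 fold change of 0.51 ± 0.15 (edgeR adjusted p = 0.0372). That call was lost without Foxp3UP replicate 1, 3 or 4 or MockUP replicate 1, 2 or 3, at adjusted p from 0.0568 to 0.104, and in 13 of 19 alternatives in all, at adjusted p up to 0.251.

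The 2 lower genes were farther off. Ppp2r3d, a regulatory subunit of a protein phosphatase, averaged 7.70 ± 0.834 CPM in the Foxp3UP libraries and 11.5 ± 3.32 in MockUP, with overlapping libraries and a log2 fold change of -0.57 ± 0.18 (edgeR adjusted p = 0.0472). Its call was lost without any 1 of 6 libraries, Foxp3UP replicates 1 to 4 and MockUP replicates 1 and 2, at adjusted p from 0.0652 to 0.136, and in 11 of 19 alternatives in all, at adjusted p up to 0.480 and a log2 fold change as small as -0.27. Epm2aip1, which encodes a partner of laforin and lies near Ccrl2, was at 23.3 ± 2.09 and 32.1 ± 4.50 CPM, with a log2 fold change of -0.46 ± 0.11 (edgeR adjusted p = 0.0149). That call was lost in 3 of 19 alternatives, with adjusted p up to 0.219 within replicates 3 and 4.

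The other tested genes by the stretch were not called and ranged from -1.09 (the pseudogene Gm2774) to 0.73 (the pseudogene Scp2-ps2) on the log2 scale. Fyco1, an adaptor of vesicle transport whose body contains Cxcr6, had a log2 fold change of -0.04 ± 0.11. Sacm1l, a lipid phosphatase, was at -0.01 ± 0.12, Limd1 at 0.12 ± 0.10 and Lars2, the mitochondrial leucyl-tRNA synthetase, at 0.26 ± 0.17. The pseudogene Gm10052 was at -0.71 ± 0.33 and Tmem158 at -0.55 ± 0.31. These genes were named after their values were seen. In each of the other 2 comparisons 0 of the 26 genes were called, against 0.00729% of all genes.

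**Figure D4:**
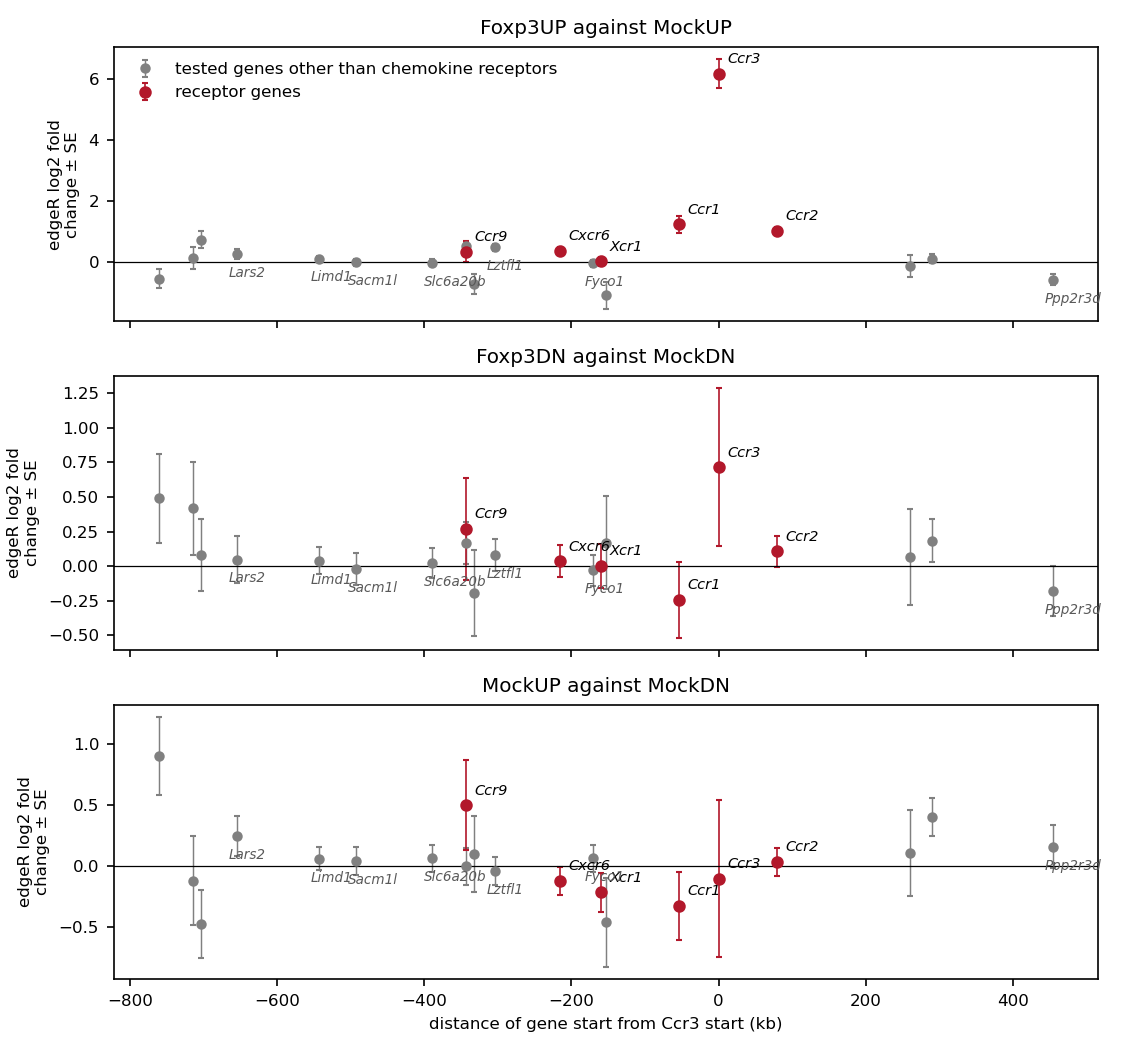
log2 fold change with its SE for the 6 clustered receptor genes (red) and the tested genes within 500 kb that are not chemokine receptors (grey), by distance of the gene start from that of Ccr3, in the 3 comparisons (each with its own vertical scale). In Foxp3UP against MockUP, Ccr3 (6.17), Ccr1 (1.24) and Ccr2 (1.03) stand above the rest of the plotted genes, while Fyco1 and Xcr1 lie at about 0. The other chemokine receptor gene tested there is not plotted.

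Of 17 ligands of the 7 receptors, chemokines apart from the chemerin gene Rarres2, 12 could be tested. In Foxp3UP against MockUP 0 were called higher (6.08% of all genes were) and 1 lower (5.99%), and the list's median log2 fold change was -0.05. The eotaxin transcripts of Ccr3 were near absent, with Ccl26 at 0 reads in all libraries and Ccl11 and Ccl24 at 4 reads or fewer in any library. Cxcl16, the ligand of Cxcr6, averaged 3.75 ± 0.581 CPM in the Foxp3UP libraries and 5.70 ± 1.25 in MockUP, a log2 fold change of -0.60 ± 0.19 (edgeR adjusted p = 0.0460). Its call was lost with the replicate number as a block (adjusted p = 0.0504) and without Foxp3UP replicate 2, 3 or 4 or MockUP replicate 2 or 3, and in 12 of 19 alternatives in all, at adjusted p up to 0.346. Xcl1, the ligand of Xcr1, was at 35.9 ± 15.8 and 118 ± 83.9 CPM and was not called (adjusted p = 0.0570). Ccl3, Ccl4 and Ccl5, ligands of Ccr1, were abundant, and the mean of Ccl5 was 1060 CPM in Foxp3UP and 1061 in MockUP.

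A list of 15 other chemokine receptors held genes outside the windows above and was not sorted by chromosome. Of these, 8 could be tested, and 2 were called higher (6.08% of all genes were) and 1 lower (5.99%). Their median log2 fold change was -0.34. Ccr4, a receptor of type 2 helper and regulatory T cells, averaged 10.2 ± 3.24 CPM in the Foxp3UP libraries and 3.12 ± 0.575 in MockUP, a log2 fold change of 1.70 ± 0.27 (edgeR adjusted p = 0.000884). Cxcr3, which guides effector T cells to interferon-induced chemokines, was at 195 ± 26.2 and 119 ± 12.9 CPM, a log2 fold change of 0.71 ± 0.14 (edgeR adjusted p = 0.00351). Cx3cr1, the fractalkine receptor of cytotoxic effector cells, was at 6.07 ± 1.80 and 15.9 ± 4.24 CPM, a log2 fold change of -1.38 ± 0.23 (edgeR adjusted p = 0.00125). These calls were lost in 1 of 19 alternatives, the one with replicates 1 and 2 only.

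Of 38 genes of signalling below these receptors, 34 could be tested, 6 were called higher (6.08% of all genes were) and 0 lower (5.99%), and the median log2 fold change was 0.14. With the smallest adjusted p were Gng2, a G protein gamma subunit (0.55 ± 0.11), Rgs10 (0.82 ± 0.17) and Rgs14 (0.48 ± 0.11), which shorten G protein signals, and Rac2, a GTPase of cell movement (0.48 ± 0.10). Their edgeR adjusted p values ran from 0.00354 to 0.00678, and each call was lost in 1 to 3 of 19 alternatives. In the other 2 comparisons 0 genes of the ligand, receptor and signalling lists were called.

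Markers of other cells that carry these receptors were read in the same libraries. Of 8 eosinophil markers, the cells best known for Ccr3, only Siglecf could be tested, at 7.52 ± 3.42 CPM in Foxp3UP and 5.10 ± 2.08 in MockUP, and it was not called (log2 fold change 0.56 ± 0.41). Ear1 and Ear6 were at 0 reads in all libraries, and Epx, Prg2, Ear2 and Il5ra had at most 1 read in any library. The summed level of the list was 4.66 to 11.8 CPM in Foxp3UP and 3.23 to 7.37 in MockUP, where Ccr3 alone was at 21.8 to 67.2 and 0.285 to 0.908 CPM. Basophil and mast cell markers summed to 3.97 to 5.42 CPM in Foxp3UP and 4.34 to 10.9 in MockUP, with 2 of 8 tested and 0 called. Those 2 went opposite ways. Kit was at 1.64 ± 0.696 and 4.48 ± 3.21 CPM (log2 fold change -1.43 ± 0.59), and Hdc at 2.65 ± 0.922 and 1.97 ± 0.197 (0.41 ± 0.27). Cpa3, not tested, averaged 0.655 CPM in Foxp3UP and 0.171 in MockUP. The part of eosinophils, basophils or mast cells in the Ccr3 level was not tested.

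Monocyte and macrophage markers, of cells that carry Ccr1 and Ccr2, summed to 55.0 to 80.4 CPM in Foxp3UP and 38.7 to 58.8 in MockUP. Of 12 such genes 10 were tested and 1 was called, Cd68 (22.7 ± 4.33 and 12.5 ± 2.97 CPM, log2 fold change 0.86 ± 0.16, edgeR adjusted p = 0.00207), while Csf1r was at 5.89 ± 0.591 and 7.25 ± 1.10 CPM and not called. The summed level of the whole list was below that of Ccr2 and above that of Ccr1, at 4.71 to 8.81 CPM in Foxp3UP. A sum over other genes does not give how much of a receptor's RNA such cells supplied. The part of monocytes and macrophages in the Ccr1 and Ccr2 levels was not tested. Dendritic cell markers summed to 17.7 to 32.1 and 40.9 to 81.6 CPM, with 3 of 8 tested and 5 under 1 CPM in all libraries. Itgax alone averaged 18.6 ± 5.15 and 50.9 ± 14.6 CPM and was the 1 called, lower at a log2 fold change of -1.45 ± 0.21 (edgeR adjusted p = 0.000473). The other tested markers, Zbtb46 (-0.01 ± 0.36) and Cadm1 (0.06 ± 0.51), were not called. Clec9a, which marks the dendritic cells known for Xcr1, had at most 1 read in any library. Of the 8 CD8 T cell genes, 1 was called higher, Cd2, at 909 ± 124 and 597 ± 167 CPM (log2 fold change 0.61 ± 0.16, edgeR adjusted p = 0.0214, 0.0667 without Foxp3UP replicate 3 and 0.0582 without Foxp3UP replicate 4). In the neutrophil and CD4 lists 0 genes could be tested, so no call was possible there. The NK cell, B cell and stromal lists had 2, 1 and 2 genes tested, and 0 were called.

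The genes whose levels over the 16 libraries were most like those of Ccr3, among named genes outside the 7, were Itgb7 (r = 0.96), Gm2a (r = 0.96), Mmp9 (r = 0.95), Maf (r = 0.95) and Izumo1r (r = 0.94). Itgb7 encodes an integrin subunit of gut-homing lymphocytes, Mmp9 a matrix protease, Maf a transcription factor and Izumo1r a folate receptor family member of regulatory T cells. Mmp9 was at a mean of 46.4 CPM in Foxp3UP and 0.941 in MockUP, close to the Ccr3 means of 41.7 and 0.564. Among the 7 genes, Ccr2 had an r of 0.96 with Ccr3, Ccr1 of 0.72 and Cxcr6 of 0.70. The 4 Foxp3UP libraries stand apart from all others in Ccr3, and the values compared share library and depth, so no test is given.

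Other receptors were most like other genes. Those most like Ccr2 were Ctsa (r = 0.97), Edaradd (r = 0.96) and Ttc38 (r = 0.95), and those most like Cxcr6 were H2-DMa (r = 0.95), Tbrg1 (r = 0.94) and Cd200r4 (r = 0.94). Those most like Ccrl2 were Igtp, Phf11a and Slfn2 (each r = 0.93), and those most like Ccr1 were Pilrb1, Gpi1 and Mvd (each r = 0.89). Xcr1 was most like Fastkd3 (r = 0.86), Ccdc184 (r = 0.83) and Tmem171 (r = 0.79). Ccr9 was most like Vps37c (r = 0.85), Ahnak (r = 0.84) and Tmem161b (r = 0.78), a likeness that rests on 5 to 18 reads of Ccr9 per library.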

How the data were processed

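The values deposited by the authors are raw counts of reads, with a row per gene and a column per library, and with each gene's coordinates and exonic length per the file headers. Per the submitters' processing notes, STAR 2.6.1, Subread 1.6.3 and mm10 were used. How reads were assigned, with or without strand, and the annotation release were not given in the sources used here, so reads of overlapping genes may be shared. Columns were matched by the sample number in the titles, and no 2 libraries were identical. Symbols came from GENCODE M21, which named 55394 of 55573 rows.

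Counts were filtered (edgeR filterByExpr, minimum count 10), TMM-scaled and tested with the quasi-likelihood F test of edgeR 4.0.16 in R 4.3.3 over all 16 libraries with a term per group, two-sided, with Benjamini-Hochberg adjustment over 13711 genes and calls at an adjusted p under 0.05. SE is the size of the log2 fold change divided by the square root of F. RPKM is CPM per kilobase of exonic length. Likeness is Pearson's r of log2 CPM (prior count 2) with genes averaging at least 1 on that scale. The Ccr3 interval is Clopper-Pearson and covers counting error only. On simulated counts for Foxp3DN against MockDN (13538 genes), 37.3% of the 1.5-fold, 73.1% of the 2-fold and 87.9% of the 4-fold changes were called.

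The members, gene lists and tests were chosen with earlier results of these data known, and the motifs and the Ccr3 interval after seeing the values. The text names the 7 members, Foxp3, called neighbours with established names, up to 4 called genes per list with the smallest adjusted p, abundant markers of each list, and the genes most like each member. Other names, Gm17200 among them, were chosen after their values were seen. Counts of neighbours cover every other gene in the window. No values are given for 2 chemokine receptor genes among them, a choice made after values were seen, nor for some other single genes.

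Replicate numbers were checked as pairs. The correlation of 2 libraries that share a number, over their deviations from the group mean, was 0.213 to 0.63 in the UP arm and 0.298 to 0.582 in the DN arm, so fits with the number as a block were also made. Other alternatives were other scalings, other filters, DESeq2 1.42.0, fewer libraries, replicate sets and other window sizes.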

Additional observations from a re-analysis of the deposited data

Results flagged for a closer look

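Of 28 sets of 4 libraries (7 genes in 4 groups), 4 had a library whose gap to the nearest other exceeded the 95% critical value of Dixon's test for 4 values. Chance flags about 1 in 20 such sets. Ccr9 in MockUP had replicate 2 highest, at 1.42 CPM against 0.973 to 1.01 CPM in the other libraries. Cxcr6 in Foxp3UP had replicate 3 highest, at 1623 CPM against 1403 to 1435 CPM. Xcr1 in MockUP had replicate 4 lowest, at 15.5 CPM against 18.7 to 19.1 CPM, and Xcr1 in MockDN had replicate 2 highest, at 26.8 CPM against 18.4 to 19.7 CPM. None of the 26 tested neighbours had a called difference between its effect in the UP groups and its effect in the DN groups.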

How the results depend on the processing

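Across 132 fits of a member in each of Foxp3DN against MockDN and MockUP against MockDN, 0 were called, and the lowest adjusted p was 0.971 and 0.204. In Foxp3UP against MockUP the log2 fold change ranged from 5.43 to 6.58 for Ccr3, 1.09 to 1.53 for Ccr1, 0.94 to 1.10 for Ccr2, 0.45 to 0.60 for Ccrl2, 0.24 to 0.52 for Cxcr6, 0.21 to 0.50 for Ccr9 and -0.16 to 0.16 for Xcr1 over 19 alternatives. Ccr3 outside Foxp3UP and Ccr9 in all groups rest on few reads, which limits their precision. Of 1654 genes called in Foxp3UP against MockUP, the count was 3475 with the replicate block, which changed no call of a member in the tested comparisons. It was 658 with only the 8 libraries compared, 31 from replicates 1 and 2 only, 3025 from replicates 3 and 4 only, and 1064 to 1978 without 1 library. With the spread shared over all libraries, it was 1360 within replicates 1 and 2 and 1253 within replicates 3 and 4. Of 5 neighbours called there, the count was 4 with other chemokine receptor genes left out, a count added after seeing the data. It was 8 in a 1 Mb window, 2 with no filter, 1 with only the 8 libraries and 3 to 5 without 1 library. From replicates 1 and 2 only it was 0, and from replicates 3 and 4 only it was 5. With the spread shared it was 4 within replicates 1 and 2 and 2 within replicates 3 and 4. The fits with the shared spread were also added after seeing the data. Of 1 gene called in Foxp3DN against MockDN, the count was 0 from replicates 1 and 2 only and 3 from replicates 3 and 4 only. Of 1 gene called in MockUP against MockDN, it was 2 with no filter, 2 within replicates 1 and 2 with the spread shared, 35 from replicates 3 and 4 only, 8 with DESeq2, and 1 to 2 without 1 library (2 without MockUP replicate 3). Of 0 neighbours called there, 1 was called from replicates 3 and 4 only. The causes were not tested.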
